A study of Mus musculus with 3 samples.

Results

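Gbp4-high endothelial cells are lung vessel-lining cells that carried at least 2 unique molecular identifiers (UMIs, counted transcripts) of the interferon-induced gene Gbp4. They were chosen from 3 Chromium 3' single-cell libraries, each made from lung cells sorted as CD45-negative. The donors were MMTV-HER2/Neu mice on the FvB background, in which a mammary promoter drives the HER2/Neu oncogene and mammary tumours form. The late HER2-positive library came from mice older than 20 weeks with primary tumours, and the early HER2-positive and early HER2-negative libraries came from mice aged 14 to 18 weeks without palpable tumours. Each group is 1 library, and the labels do not say how many animals it pools. The submitters call the HER2-positive sort breast cancer cells and the HER2-negative sort non-cancer lung cells.

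A barcode had to hold at least 1000 UMIs and 200 genes, with mitochondrial transcripts under 25%. The endothelial gate asked for at least 4 UMIs summed over Cldn5, Cdh5, Cd93 and Calcrl, no UMI of the mesenchymal genes Pdgfrb and Col1a2, under 5% of UMIs on the surfactant gene Sftpc, and no UMI of Car4, Gja5 or Vwf. Car4, Gja5 and Vwf mark aerocyte capillary, arterial, and large-vessel or venous cells. The gate left 3501 of 19899 barcodes, and 553 of these were Gbp4-high: 13 of 128 gated cells in the late HER2-positive, 99 of 591 in the early HER2-positive and 441 of 2782 in the early HER2-negative library. They were set against 89, 369 and 1848 Gbp4-zero cells of the same gate and library. The 642 gated cells with exactly 1 Gbp4 UMI were in neither group. No Gbp4-high barcode was shared between libraries, although 10 to 18 kept barcodes were shared by each pair of libraries.

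Interferons act on receptors that signal through Janus kinases to transcription factors. The factors that interferon-gamma activates bind gamma-activated sites (GAS) in DNA, whereas type I interferons act mainly through a complex that includes IRF9 and binds interferon-stimulated response elements (ISRE). Among the strongest interferon-gamma-induced genes in the mouse are the immunity-related GTPases (IRG), such as Iigp1 and Igtp, and the guanylate-binding proteins (GBP), such as Gbp4, which act on membranes around intracellular pathogens. Endothelial cells are known to respond to interferon-gamma by raising antigen presentation genes, including those of MHC class II.

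The promoters of 3 of these GTPase genes are shown because Igtp, Gbp7 and Ifi47 were among the 4 interferon-list members with the lowest p. The sequences are the 250 bases before the gene start in RefSeq (GRCm38.p6, plus strand in all 3). Capitals mark matches, on either strand, to an ISRE, searched as TTTC followed by NN and TTTC, or to a GAS, searched as TTCNNNGAA. Igtp lies at chr11:58199306-58199555, Gbp7 at chr3:142530086-142530335 and Ifi47 at chr11:49076337-49076586.
Igtp: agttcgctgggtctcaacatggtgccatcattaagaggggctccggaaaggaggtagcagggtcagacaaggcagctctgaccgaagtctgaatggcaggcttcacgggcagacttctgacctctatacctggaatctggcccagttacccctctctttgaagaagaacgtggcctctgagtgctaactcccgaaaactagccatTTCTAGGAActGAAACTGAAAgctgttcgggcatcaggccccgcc
Gbp7: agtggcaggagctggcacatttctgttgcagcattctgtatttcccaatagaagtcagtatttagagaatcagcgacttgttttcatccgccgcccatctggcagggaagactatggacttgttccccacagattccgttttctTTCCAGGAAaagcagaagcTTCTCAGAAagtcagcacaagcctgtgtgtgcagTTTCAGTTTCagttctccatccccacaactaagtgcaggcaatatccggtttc
Ifi47: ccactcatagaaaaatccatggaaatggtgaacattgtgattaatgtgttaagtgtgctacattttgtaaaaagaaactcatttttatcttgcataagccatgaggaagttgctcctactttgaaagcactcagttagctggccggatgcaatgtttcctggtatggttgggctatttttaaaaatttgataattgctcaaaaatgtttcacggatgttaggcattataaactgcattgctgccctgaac

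The Igtp promoter held 1 ISRE and 1 GAS, whose first bases lay 34 and 45 bases before the start. The Gbp7 promoter held 1 ISRE at 53 bases and 2 GAS matches at 106 and 87 bases, counted in the same way. In the window of Ifi47 neither string of letters was present. Over all 32851 promoter entries, 2.98% held the ISRE letters and 7.02% the GAS letters. Counted per gene, 3.46% of the 27025 genes with an entry held an ISRE and 8.13% a GAS. Of the 64 genes higher in Gbp4-high cells than in Gbp4-zero cells, 45 matched an entry. Counted per gene, 12 of these 45 held an ISRE and 11 a GAS. A match is a description of the sequence and does not show binding.

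Gbp4 chose the cells, so its level is given only as a description. Among the 553 cells, 265 held exactly 2 Gbp4 UMIs, 134 held 3 and 154 held 4 or more. The median was 4, 3 and 3 UMIs in the late HER2-positive, early HER2-positive and early HER2-negative library, and the highest cell held 11, 14 and 11. Levels are given as CPM, the UMIs of a gene summed over the cells of a library and state and scaled to a common total. Gbp4 stood at 882, 883 and 916 CPM. Gbp4 (ENSMUSG00000079363) lies on chromosome 5 from 105115767 to 105139586 on GRCm38/mm10.

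The cut on UMIs makes the share of Gbp4-high cells depend on depth. The share was 10.2% in the late HER2-positive library (95% Clopper-Pearson interval 5.52 to 16.7), 16.8% in the early HER2-positive library (13.8 to 20.0) and 15.9% in the early HER2-negative library (14.5 to 17.3). After thinning each cell to 1000 UMIs, the shares with at least 2 Gbp4 UMIs were 4.69%, 4.57% and 4.28%. The intervals of the 3 libraries overlapped on both scales, and they cover counting error only. Gbp4-high cells were deeper than Gbp4-zero cells, with a median of 4859, 3562 and 3114 UMIs against 3411, 2870 and 2642.

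Gbp4 was not limited to the gated cells. After thinning, 13.3%, 19.3% and 17.8% of gated endothelial cells had a Gbp4 UMI in the late HER2-positive, early HER2-positive and early HER2-negative library. Endothelial cells positive for Car4, Gja5 or Vwf had one in 10.96% to 14.7% of cells. Detection was far lower in 2 other cell populations: 2 of 3745, 1 of 3596 and 0 of 32 Sftpc-rich cells, and 0 of 836, 1 of 1214 and 1 of 493 mesenchymal cells. The median depth of Sftpc-rich cells was 8781, 6972.5 and 8221.5 UMIs before thinning, and that of gated cells 3635.5, 3081 and 2766.5.

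**Figure D1:**
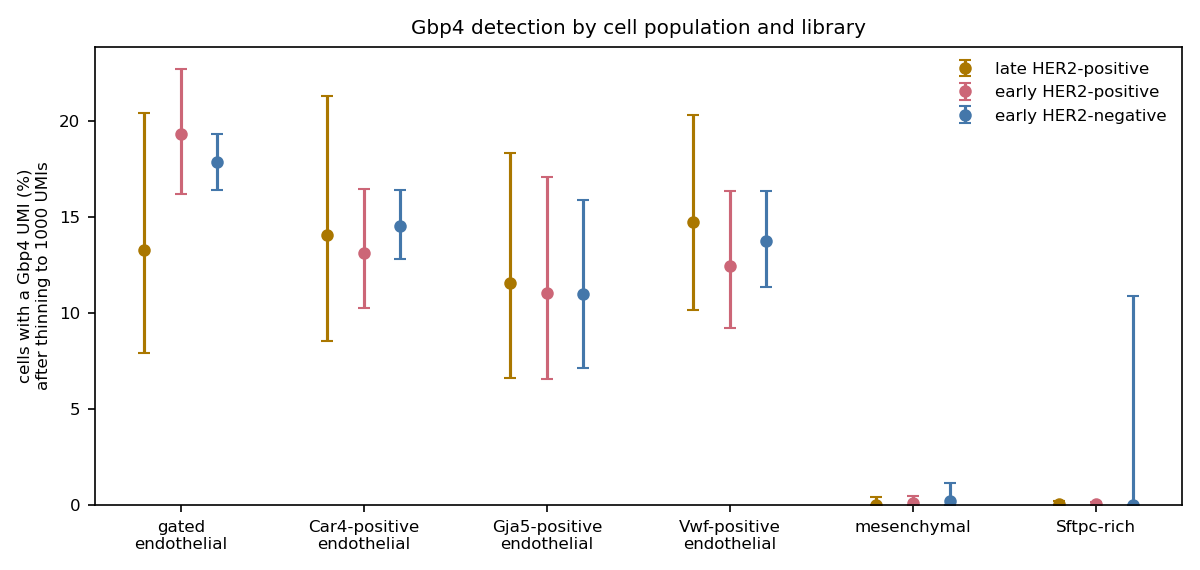
Share of cells with at least 1 Gbp4 UMI after thinning to 1000 UMIs (y axis, percent) by cell population (x axis) and library (colour), with 95% Clopper-Pearson intervals. The 4 endothelial populations lie between 10.96% and 19.3%, and the mesenchymal and Sftpc-rich cells lie at 0.203% or lower.

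The first comparison asks which other genes differ between Gbp4-high and Gbp4-zero cells of the same library. All tested interferon-induced IRG and GBP GTPase genes were higher in Gbp4-high cells, although Gbp8 and Gbp9 may share reads with Gbp4. Also higher were 5 of 23 MHC class I and 4 of 6 MHC class II presentation genes. Most capillary, arterial and venous genes did not pass the test. Counts were summed per library and state and tested with edgeR's quasi-likelihood test, with library as a block and Benjamini-Hochberg adjustment over 7699 genes. The 11 gate genes were not tested. At an adjusted p under 0.05, 64 genes were higher (0.831% of those tested) and 19 lower (0.247%). The direction was the same in all 3 libraries for 54 of the 64 and 16 of the 19. Over all genes tested, 12.4% were higher and 14.4% lower in all 3 libraries. Of the 64, 37 belonged to the interferon and MHC lists, among them the named marker Iigp1 and the uncertain Gbp8 and Gbp9. Among the 7699 genes tested were 7 IRG, 6 GBP, 7 chemokine and regulator and 18 type I signature genes. The rest of these lists held 15 receptor and signalling, 23 MHC class I and 6 MHC class II genes tested. The 3 libraries differ in sort and stage, so a p does not measure spread over replicate animals. A low p did not require 1 direction in all libraries. The haemoglobin gene Hbb-bs was called lower (edgeR adjusted p = 2.56e-22) but was higher in Gbp4-high cells of the early HER2-positive library, with 42 against 6 UMIs. The late HER2-positive library had 1 against 0 UMIs of it.

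The IRG GTPases moved together. Of 9 members in the files, 7 passed the filter on low counts and all 7 were higher, with log2 fold changes of 1.75 to 2.37 and a median of 1.97, beside a median of -0.01 over all genes tested. Iigp1, whose product targets the vacuole of Toxoplasma in mice, was named with Gbp4 as a marker of these cells, so its values are a description. Iigp1 stood at 756, 784 and 647 CPM in Gbp4-high cells of the late HER2-positive, early HER2-positive and early HER2-negative library, against 115, 164 and 184 CPM in Gbp4-zero cells. The Gbp4-high level was the higher one in all 3 libraries, and within each library the Poisson intervals did not meet. Its fitted log2 difference was 1.97 ± 0.08 (SE).

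Igtp, an IRG GTPase also called Irgm3 that regulates the others, stood at 410, 357 and 334 CPM in Gbp4-high cells, against 57.6, 60.1 and 67.9 CPM in Gbp4-zero cells. Its log2 fold change was 2.37 ± 0.10 (SE; edgeR adjusted p = 2.85e-32). Ifi47 stood at 347, 352 and 348 CPM in Gbp4-high cells, against 65.8, 92.9 and 109 CPM in Gbp4-zero cells. Both genes were higher in all 3 libraries, and the libraries lay closer together than the states. Irgm2 (log2 2.03 ± 0.13), Irgm1 (1.78 ± 0.19), Tgtp2 (2.08 ± 0.29) and Gm4951 (1.88 ± 0.15) were higher in all 3 libraries as well. Igtp (chromosome 11, 58199556 to 58207591) and Irgm2 (58199618 to 58222782) overlap on the same strand, so their counts may not be fully separate. Tgtp1, the near-identical neighbour of Tgtp2, had 0, 2 and 17 UMIs in Gbp4-high and 0, 0 and 2 UMIs in Gbp4-zero cells and was not tested.

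The other guanylate-binding proteins followed the same direction. Of 8 usable members besides Gbp4, 6 passed the filter and all 6 were higher, with a median log2 fold change of 1.42. Gbp7, the most abundant of them, stood at 1056, 917 and 804 CPM in Gbp4-high cells, against 186, 267 and 283 CPM in Gbp4-zero cells. Its log2 fold change was 1.64 ± 0.08 (edgeR adjusted p = 4.75e-30). Gbp5, which also promotes inflammasome assembly, stood at 126, 133 and 90.9 CPM against 24.7, 15.9 and 24.6 CPM. Gbp2 stood at 315, 352 and 344 CPM against 121, 165 and 143 CPM. These 3 genes were higher in all 3 libraries, as were 12.4% of all genes tested.

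Gbp8 (log2 1.56 ± 0.12) and Gbp3 (1.28 ± 0.17) were also higher, and Gbp9 had the smallest difference of the family (0.77 ± 0.09). Gbp2, Gbp3, Gbp5 and Gbp7 lie in a cluster on chromosome 3 and Gbp4, Gbp8 and Gbp9 in a cluster on chromosome 5. Gbp8 (105014150 to 105139540) and Gbp9 (105077630 to 105139539) span the Gbp4 gene (105115767 to 105139586) on the same strand. Their counts may share reads with the gene that chose the cells, so the values of both are uncertain. Whether the chromosome 5 cluster was higher apart from Gbp4 therefore cannot be told. Gbp2b and Gbp10 had too few counts to be tested, at 0, 0 and 4 UMIs and at 2, 5 and 12 UMIs in Gbp4-high cells.

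**Figure D2:**
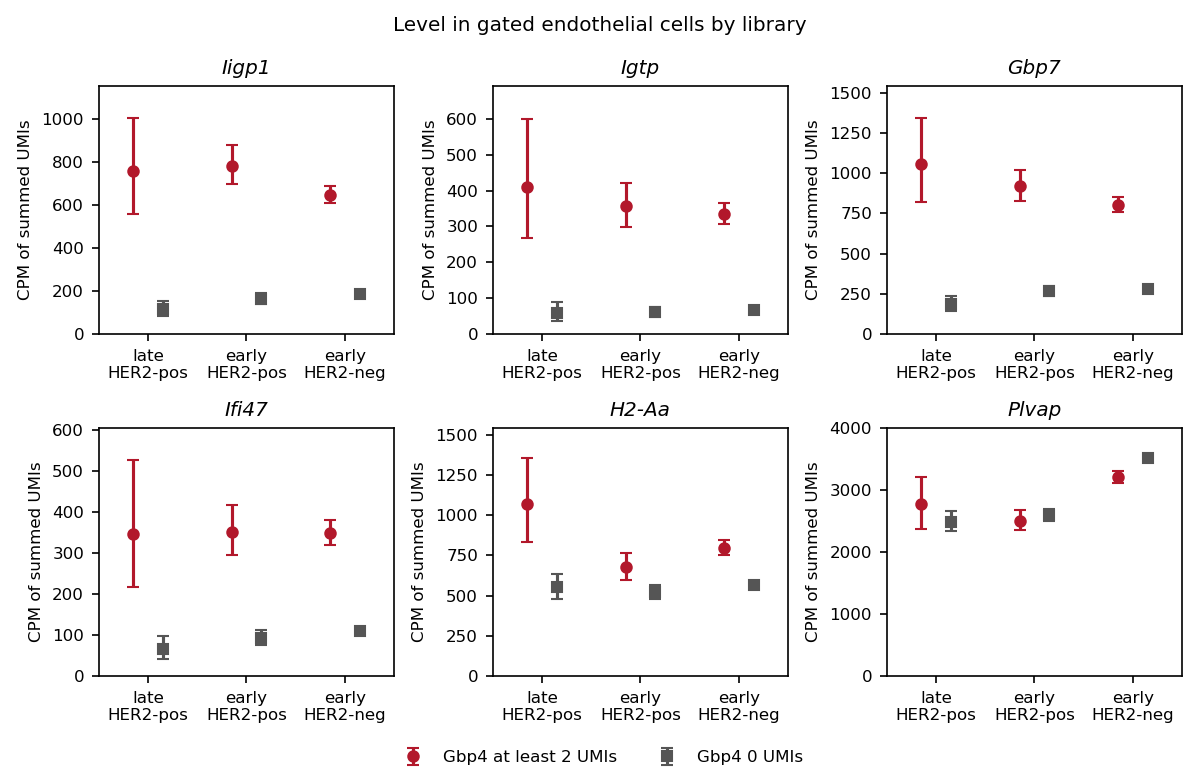
Level of 6 genes in CPM of summed UMIs (y axes, from 0) in Gbp4-high (red circles) and Gbp4-zero (grey squares) cells of each library (x axes), with exact 95% Poisson intervals. Gbp4-high and Gbp4-zero levels of Iigp1, Igtp, Gbp7 and Ifi47 lie apart in every library (Iigp1 647 to 784 against 115 to 184), H2-Aa differs less, and the capillary gene Plvap is at 2508 to 3209 against 2491 to 3523.

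Among 15 receptor and signalling genes, all of which were tested, 2 were higher and 13 did not pass. The called members were the transcription factor genes Stat2 (log2 0.94 ± 0.17) and Irf9 (0.80 ± 0.14), whose products act in type I interferon signalling. DESeq2 called 0 of the 15, and 3 had an unadjusted edgeR p under 0.05. The receptor genes Ifngr1, Ifngr2, Ifnar1 and Ifnar2 had log2 differences of 0.02 ± 0.09, 0.06 ± 0.15, 0.07 ± 0.14 and 0.11 ± 0.11, and the kinase gene Jak1 0.04 ± 0.09. None of these 5 passed the test.

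The ligands themselves were scarcely seen. Ifng, Ifnb1, Ifna4, Ifnl2 and Ifnl3 had 0 UMIs in Gbp4-high and Gbp4-zero cells of every library. Only Csf1, a macrophage growth factor gene, had enough counts among the 13 ligand genes to be tested, and it did not pass (log2 0.28 ± 0.12).

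Among chemokines and regulators that interferon-gamma induces, 7 of 19 members could be tested and 5 were higher. Serpina3f, a serine protease inhibitor gene, stood at 236, 266 and 228 CPM in Gbp4-high cells, against 60.3, 80.5 and 70.9 CPM in Gbp4-zero cells (log2 1.69 ± 0.11), and Serpina3g was higher as well (1.62 ± 0.20). Cd274, which encodes the checkpoint ligand PD-L1, was higher by 1.98 ± 0.31 on the log2 scale, from 4, 15 and 54 UMIs in Gbp4-high cells and 3, 17 and 41 UMIs in the larger pool of Gbp4-zero cells. Irf1, an interferon-gamma-induced transcription factor gene, was higher by 0.76 ± 0.09.

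Ciita, the master regulator of MHC class II genes, stood at 15.8, 85.9 and 108 CPM in Gbp4-high cells, against 21.9, 23.9 and 26.0 CPM in Gbp4-zero cells. Its log2 fold change was 1.94 ± 0.18, but the late HER2-positive library, with 1 UMI in 13 Gbp4-high cells, did not follow the early libraries. The chemokine genes Cxcl9 and Cxcl10 were near 0. Cxcl10 had 0, 5 and 24 UMIs in Gbp4-high cells, of which 5 and 23 lay in 1 cell each, and none in Gbp4-zero cells. Cxcl9 had 2 UMIs in all, in 1 Gbp4-high cell.

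Genes of the type I interferon signature differed by less. Of 29 usable members 18 were tested, 8 were higher and 10 did not pass, with a median log2 fold change of 0.64. DESeq2 called 1 of the 18, Parp14. Isg15, a ubiquitin-like modifier, stood at 252, 120 and 138 CPM in Gbp4-high cells, against 60.3, 76.9 and 79.1 CPM in Gbp4-zero cells (log2 0.82 ± 0.12). Zbp1, a nucleic acid sensor, was higher by 1.61 ± 0.31, Parp14 by 0.76 ± 0.10 and Ifit1 by 0.97 ± 0.26. Ifit3 (1.17 ± 0.34), Irf7 (0.42 ± 0.29) and the tetherin gene Bst2 (0.09 ± 0.08) did not pass. Mx1 had 0 UMIs in both states of every library, and Rsad2 had 1, 3 and 10 UMIs in Gbp4-high cells.

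The summed level of the IRG list was 2379, 1945 and 1754 CPM in Gbp4-high cells and 386, 433 and 474 CPM in Gbp4-zero cells, a ratio of 6.16 (95% interval 4.86 to 7.80), 4.49 (3.9996 to 5.04) and 3.70 (3.50 to 3.91). For the GBP list without Gbp4, but with Gbp8 and Gbp9, the ratio was 3.38, 2.65 and 2.54. The list of chemokines and regulators had ratios of 2.16, 1.84 and 2.09 and the type I signature 2.26, 1.37 and 1.35. The IRG ratio was the highest of these 4 lists and the GBP ratio the next in each library, and no test of the differences between lists was made. The IRG sum includes Iigp1, a named marker of these cells, so this order is a description. Iigp1 held 48 of 151, 301 of 747 and 968 of 2623 IRG UMIs in Gbp4-high cells.

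**Figure D3:**
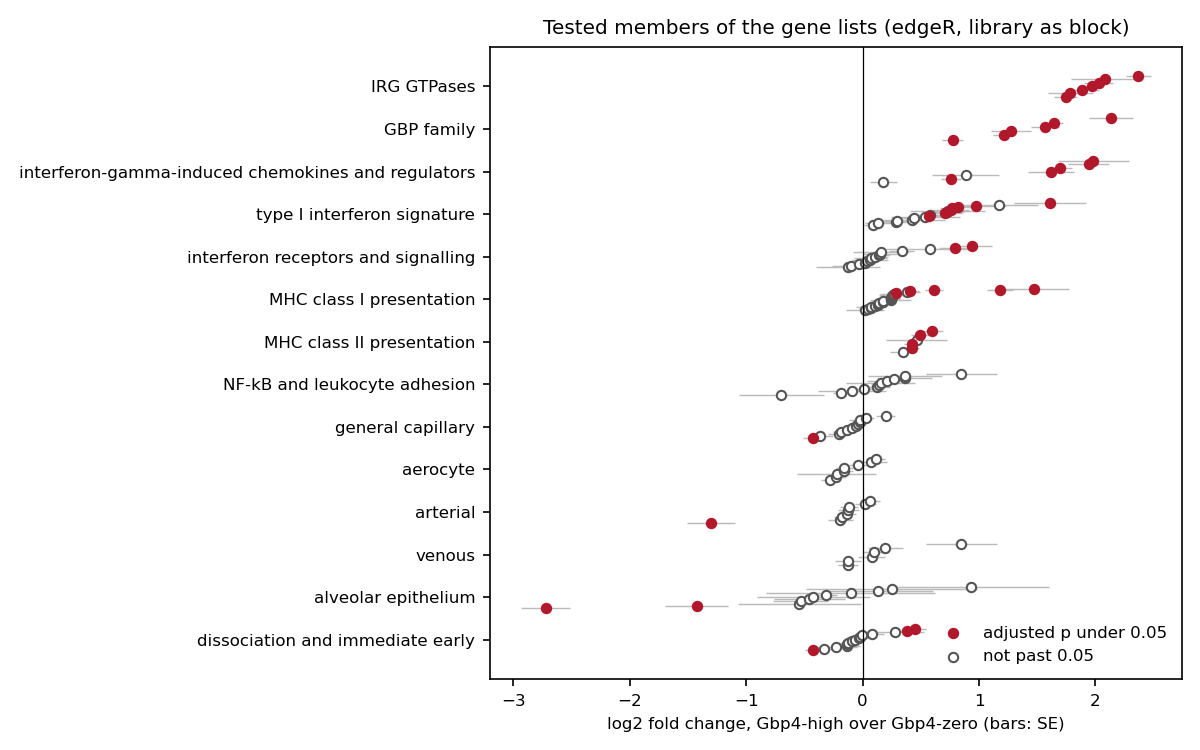
Log2 fold change of Gbp4-high over Gbp4-zero cells (x axis) with its SE for the tested members of 14 gene lists (y axis), red where the edgeR adjusted p is under 0.05. All 7 tested IRG and all 6 tested GBP genes are red and to the right of 0, the antigen presentation lists are mixed, and the capillary, aerocyte, arterial and venous lists lie close to 0 apart from Mgp and the uncalled venous Vcam1.

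Antigen presentation genes differed by unequal amounts, and the calls did not follow their roles. Of the 23 MHC class I presentation genes, all tested, 5 were higher: the transactivator gene Nlrc5 (log2 1.47 ± 0.30), the peptide transporter gene Tap1 (1.18 ± 0.11) and the immunoproteasome subunit genes Psmb9 (0.61 ± 0.08), Psmb8 (0.41 ± 0.07) and Psmb10 (0.29 ± 0.08). Tap1 stood at 189, 229 and 229 CPM in Gbp4-high cells, against 43.9, 82.2 and 109 CPM in Gbp4-zero cells. Nlrc5 rests on 1, 8 and 59 UMIs in Gbp4-high cells and was not higher in the late HER2-positive library. At an unadjusted edgeR p under 0.05, 16 of the 23 were higher and 0 lower, and 19 were higher in all 3 libraries. DESeq2 called 2 of the 23, Tap1 and Psmb9. The processing genes Tap2 (0.27 ± 0.12), Tapbp (0.24 ± 0.08) and Psme1 (0.24 ± 0.08) did not pass. The abundant heavy chain genes H2-K1 (0.13 ± 0.06) and H2-D1 (0.11 ± 0.06) and the light chain gene B2m (0.18 ± 0.06) did not pass.

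MHC class II genes were higher by smaller amounts. Of 10 members 6 were tested and 4 were higher: H2-DMa (log2 0.59 ± 0.10), H2-Aa (0.49 ± 0.07), H2-Ab1 (0.42 ± 0.06) and the invariant chain gene Cd74 (0.42 ± 0.06). Cd74 stood at 6539, 3258 and 3954 CPM in Gbp4-high cells, against 3201, 2861 and 3002 CPM in Gbp4-zero cells. H2-Aa stood at 1071, 680 and 798 CPM against 554, 521 and 565 CPM. Both genes were higher in all 3 libraries, although the early HER2-positive Gbp4-high level of each lay close above the Gbp4-zero levels. DESeq2 called 0 of the 6, although 5 had an unadjusted edgeR p under 0.05. The H2 genes are similar in sequence, and counts may be shared between them.

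Outside the lists, the rule for named genes gave Wars and Lap3. Wars, the tryptophan tRNA synthetase gene, which interferon-gamma induces, stood at 441, 505 and 408 CPM in Gbp4-high cells, against 181, 195 and 185 CPM in Gbp4-zero cells (log2 1.19 ± 0.09; edgeR adjusted p = 7.63e-20). Lap3, a leucine aminopeptidase gene, was higher by 1.33 ± 0.19. Both were higher in all 3 libraries.

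Inflammatory adhesion genes did not pass the test. Of the 12 tested members of the NF-kB and leukocyte adhesion list, 0 passed edgeR's adjusted threshold or DESeq2's, 4 had an unadjusted edgeR p under 0.05 (3 higher, 1 lower), and the median log2 fold change was 0.15. Vcam1 had 0.85 ± 0.30 and Icam1 0.27 ± 0.12. Of the dissociation and immediate early list, whose genes respond to tissue digestion, 15 were tested. The heat shock genes Hspa1a (0.38 ± 0.08) and Hspa1b (0.45 ± 0.09) were higher and the phosphatase gene Dusp1 (-0.42 ± 0.07) was lower, and DESeq2 called 0 of the 15. The summed level of that list was 6823, 8278 and 10985 CPM in Gbp4-high cells and 7482, 8720 and 11186 CPM in Gbp4-zero cells.

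The vessel identity of the Gbp4-high cells was read from genes outside the gate. Plvap, a diaphragm protein gene of capillaries, stood at 2773, 2508 and 3209 CPM in Gbp4-high cells, against 2491, 2596 and 3523 CPM in Gbp4-zero cells. Gpihbp1, which anchors lipoprotein lipase on capillaries, stood at 2001, 1870 and 2257 CPM against 1655, 1861 and 2353 CPM. Of the 12 general capillary genes, all tested, only Lpl, the lipoprotein lipase gene, passed, and it was lower (log2 -0.43 ± 0.09). The summed capillary list had a ratio of 0.979, 0.980 and 0.952, with intervals of 0.9026 to 1.061, 0.948 to 1.01 and 0.937 to 0.966, so that only the early HER2-negative interval lay below 1. At an unadjusted edgeR p under 0.05, 4 of the 12 were lower and 1 higher, and DESeq2 called 0. Of the tested aerocyte (8), venous (6) and lymphatic (2) genes, 0 passed the adjusted threshold of edgeR or DESeq2. At an unadjusted edgeR p under 0.05, 4 of the 8 aerocyte genes were lower, 1 of the 6 venous genes was higher and 0 of the 2 lymphatic genes differed. Among 8 arterial genes only Mgp, a matrix calcification inhibitor gene, passed, and it was lower.

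Markers of other cell types were checked in the same cells. Ptprc, which encodes the CD45 protein used in the sort, had 0 UMIs in both states of every library. Of 17 leukocyte markers, only Lyz2 could be tested (log2 0.11 ± 0.28), and 16, 16 and 12 of the 17 were at 0 in Gbp4-high cells. At least 1 UMI of 7 leukocyte genes (Ptprc, Cd52, Laptm5, Tyrobp, Fcer1g, Coro1a and Cd3e) was present in 2 of 553 Gbp4-high and 0 of 2306 Gbp4-zero cells. Epcam, an epithelial adhesion gene, had 0, 10 and 0 UMIs in Gbp4-high cells against 6, 15 and 5 UMIs in Gbp4-zero cells, and 70.0% of the Gbp4-high UMIs lay in 1 cell. The milk protein and airway list was at 205, 138 and 9.36 CPM in Gbp4-high cells and 230, 180 and 8.79 CPM in Gbp4-zero cells, mainly Scgb1a1.

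The genes lower in Gbp4-high cells included 2 of the 11 alveolar epithelial genes tested, while the other 9 did not pass. The log2 fold changes of the 11 ran from -2.72 to 0.93, with a median of -0.42. In all 3 libraries 5 were lower and 0 higher, and DESeq2 called 1. Ager, a receptor gene of alveolar type 1 cells, stood at 78.8, 44.3 and 5.35 CPM in Gbp4-high cells, against 189, 268 and 55.5 CPM in Gbp4-zero cells (log2 -2.72 ± 0.21; edgeR adjusted p = 3.61e-18), with 34.6% of the Gbp4-zero UMIs in 1 cell. Cldn18, an alveolar claudin gene, was lower by the fit as well (-1.42 ± 0.27). The 14 alveolar genes summed to 914, 703 and 266 CPM in Gbp4-high cells and 1908, 1145 and 346 CPM in Gbp4-zero cells. The part of alveolar RNA in the other lower genes was not tested.

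The rule for named genes gave 11 lower genes in all. Besides Ager, Cldn18, Mgp (-1.30 ± 0.20), Lpl and Dusp1, they were S100a6 (-1.65 ± 0.18), the methyltransferase gene Inmt (-1.20 ± 0.26), the endothelial proteoglycan gene Esm1 (-0.58 ± 0.12), the peroxiredoxin gene Prdx6 (-0.54 ± 0.14), Igfbp7 (-0.29 ± 0.07) and Id1, a BMP target gene (-0.28 ± 0.07). Esm1 stood at 126, 130 and 97.6 CPM in Gbp4-high cells, against 269, 170 and 146 CPM in Gbp4-zero cells. Mgp stood at 31.5, 41.7 and 24.7 CPM against 123, 183 and 38.1 CPM, with 25.5% of the Gbp4-high UMIs in 1 cell, and its groups overlapped. When library was left out of the design, edgeR called 14 of the 64 higher and 0 of the 19 lower genes. There 44 genes were lower at an unadjusted p under 0.05, and DESeq2 with the block called 24 of the 64 and 2 of the 19.

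Cells just inside and just outside the cut at 2 Gbp4 UMIs were compared with the rest. In the early HER2-negative library Iigp1 stood at 184, 294, 451 and 838 CPM in cells with 0, 1, 2 and 3 or more Gbp4 UMIs. Igtp stood at 67.9, 136, 224 and 442 CPM in the same classes, and Gbp2 at 143, 213, 289 and 397 CPM. Levels of all 3 genes were higher in each class than in the one before it. In the early HER2-positive library Iigp1 stood at 164, 261, 581 and 909 CPM, whereas Gbp2, at 165, 158, 342 and 358 CPM, did not differ in that order between 0 and 1 UMIs. The late HER2-positive library had 115, 350, 344 and 1106 CPM of Iigp1, with 26 cells just outside and 5 cells just inside the cut. There Igtp, at 57.6, 218, 68.7 and 699 CPM, and Gbp2, at 121, 303, 103 and 495 CPM, were lower just inside the cut than just outside it. Gpihbp1 showed no such order, at 2353, 2387, 2248 and 2266 CPM in the early HER2-negative library. No test was made on these classes, and the median depth was 4002.5, 3430 and 2913 UMIs just outside and 4890, 3578 and 3128 UMIs just inside the cut.

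**Figure D4:**
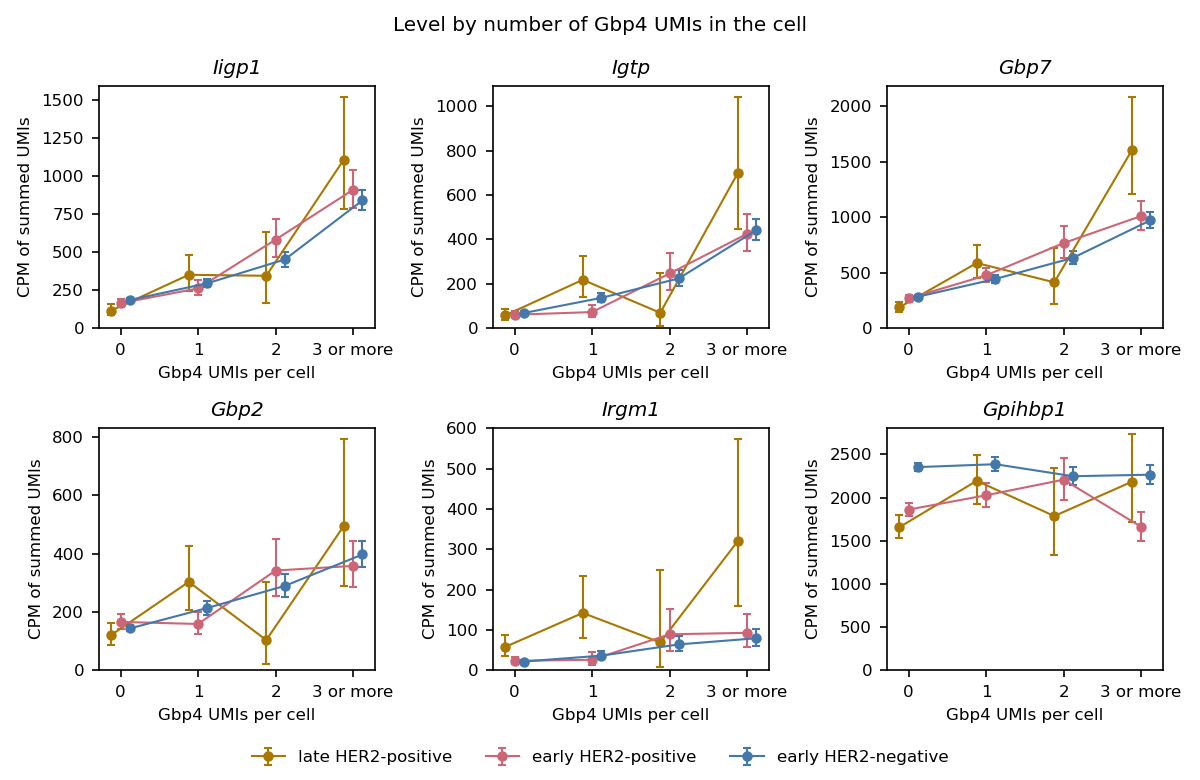
Level in CPM of summed UMIs (y axes, from 0) of 6 genes by the number of Gbp4 UMIs in the cell (x axes) in each library (colour), with exact 95% Poisson intervals. In both early libraries Iigp1, Igtp, Gbp7 and Irgm1 climb over the classes, with Iigp1 reaching 838 CPM in the early HER2-negative library, whereas Gpihbp1 does not; the late HER2-positive classes of 5 and 8 cells have wide intervals.

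Several of the genes were detected together in a larger share of Gbp4-high than of Gbp4-zero cells. Whether this exceeds what the level of each gene alone would give was not tested. After thinning to 1000 UMIs, at least 3 of 7 genes (Iigp1, Igtp, Irgm1, Irgm2, Gbp2, Gbp3 and Gbp7, chosen after their values were seen) were detected in 23.1%, 34.3% and 28.3% of Gbp4-high cells, against 4.49%, 4.88% and 3.68% of Gbp4-zero cells. Iigp1 alone was detected in 38.5%, 42.4% and 37.2% of thinned Gbp4-high cells, against 11.2%, 16.3% and 14.1% of Gbp4-zero cells, and in at most 0.107% of thinned Sftpc-rich cells. Gbp7 was detected in 24.7%, 21.7% and 23.3% of thinned Gbp4-zero cells and in at most 0.528% of thinned Sftpc-rich cells. Of the 7 genes, 5 of 13, 15 of 99 and 98 of 441 thinned Gbp4-high cells had none.

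The second comparison asks how Gbp4-high cells differ between libraries. With 1 library per group there is no test, and stage, age, sort and animals cannot be told apart from library. Genes with at least 10 UMIs in the pair were counted when they differed by 1.5-fold. In Gbp4-high cells of the late HER2-positive over the early HER2-positive library, 21.9% of 6091 genes were higher and 21.1% lower by this measure. The late HER2-positive pool held 13 cells with 63465 UMIs, and the early HER2-positive pool 99 cells with 384029 UMIs. In the early HER2-positive over the early HER2-negative library, 14.5% of 9374 genes were higher and 14.1% lower.

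For Iigp1 and Gbp7 the interval of the ratio between the HER2-positive libraries included 1 in Gbp4-high cells. Iigp1 had a late HER2-positive over early HER2-positive ratio of 0.965 (exact 95% interval 0.696 to 1.31) and Gbp7 of 1.15 (0.873 to 1.499). Of the MHC genes, Cd74 had a ratio of 2.01 (1.79 to 2.25), H2-Aa of 1.58 (1.19 to 2.07) and B2m of 1.75 (1.52 to 2.01). Isg15 had a ratio of 2.10 (1.11 to 3.79). Of the lists, 4 of 8 IRG, 0 of 6 GBP, 2 of 22 MHC class I, 3 of 6 MHC class II and 9 of 18 type I signature genes were at least 1.5-fold higher, and 0, 1, 0, 0 and 4 were lower. The median ratio was 1.70 for the IRG list, 0.923 for the GBP list and 1.23 for the MHC class I list. In Gbp4-zero cells, where 13.2% of all genes measured were higher and 14.1% lower, 1 of 7, 1 of 6, 1 of 23, 0 of 7 and 3 of 19 members were higher.

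For the early HER2-positive over the early HER2-negative library, Iigp1 had a ratio of 1.21 (1.060 to 1.38) and Gbp7 of 1.14 (1.01 to 1.28). Cd74 was at 0.824 (0.774 to 0.876) and Irf1 at 0.715 (0.580 to 0.874). Of the IRG, GBP, MHC class I, MHC class II and type I signature lists, 0 of 9, 2 of 7, 0 of 23, 1 of 7 and 0 of 24 members were at least 1.5-fold higher, and 1, 0, 2, 0 and 6 were lower. Of the alveolar epithelial genes, 8 of 9 were higher in Gbp4-high cells, with a median ratio of 46.7, and 12 of 12 in Gbp4-zero cells, with a median ratio of 23.2; their part in the other ratios was not tested. Among dissociation genes 5 of 15 were lower and 0 higher, with Dusp1 at 0.545 (0.474 to 0.624) and Ier3 at 0.563 (0.503 to 0.629). In Gbp4-zero cells, where 12.2% of all genes measured were higher and 9.13% lower, 5 of 15 were lower as well.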

How the data were processed

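The values are UMI counts per gene and barcode from 10x Chromium 3' version 3 libraries, deposited by the authors as unfiltered matrices without normalization. Each matrix lists 6794880 barcodes and 27998 genes. Per the file headers, software version 3.1.0 wrote them. Per the submitters' processing notes, reads were placed on mm10; aligner and annotation are not given in these sources. Libraries held 54961019 (late HER2-positive), 49248126 (early HER2-positive) and 25610135 (early HER2-negative) UMIs, and the kept barcodes 51059577, 44541222 and 22613125.

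Counts were summed per library and state (Gbp4-high or Gbp4-zero) and tested with edgeR 4.0.16 (R 4.3.3): filterByExpr, TMM scaling, quasi-likelihood fit and test, library as block, adjusted p under 0.05. The pairing comes from the files, since both states of a pair are cells of 1 library. Between libraries, CPM ratios have exact conditional intervals, levels exact Poisson intervals and shares Clopper-Pearson intervals, at the 95% level; they cover counting error only. Cells were thinned without replacement to 1000 UMIs for shares.

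Doublets were not removed. Scrublet (scanpy 1.11.5) marked 0.882%, 5.14% and 0.0478% of barcodes by its automatic threshold, so the alternative removed the highest scores, 0.8% per 1000 barcodes. Symbols missing (4) or duplicated (4) in the files were left out of the 20 lists. Named genes are list members plus, among genes past 0.05 with 1 direction in all 3 libraries and a mean of at least 50 CPM, the 15 largest and 15 smallest log2 fold changes, without gate genes, predicted models, ribosomal protein and mitochondrial genes. Promoters are those of the list members with the lowest p outside mouse chromosome 18. The members and lists were chosen with earlier results of these data known. Alternatives were another scaling, filter, tool, design, cut on Gbp4, depth or gate, and leaving out each library. The fit was tested on simulated data. Gene coordinates are from GENCODE on GRCm38 and promoters from RefSeq. A gene of the signalling list was tested with all others but is not reported here.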

Additional observations from a re-analysis of the deposited data

Results flagged for a closer look

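Among list members, 3 genes had a Gbp4-high over Gbp4-zero ratio whose exact 95% interval lay above 1 in 1 library and below 1 in another. Genes whose libraries differed in direction without meeting this condition, such as Ciita and Nlrc5, are not included. None of these differences was tested. Icam1, an endothelial adhesion gene, had a Gbp4-high over Gbp4-zero ratio of 1.28 (exact 95% interval 1.09 to 1.503) in the early HER2-negative library, whereas the late HER2-positive library had 0 UMIs in 13 Gbp4-high cells and 27 UMIs in 89 Gbp4-zero cells. Lyve1, a hyaluronan receptor gene, had a ratio of 1.37 (1.01 to 1.83) in the late HER2-positive and 0.897 (0.815 to 0.986) in the early HER2-negative library. Sema3c, a capillary gene, had a ratio of 0.627 (0.466 to 0.830) in the late HER2-positive and 1.07 (1.03 to 1.12) in the early HER2-negative library. All 3 rest on the 13 late HER2-positive Gbp4-high cells.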

How the results depend on the processing

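Each alternative changed 1 choice. The counts of 64 higher and 19 lower genes were 61 and 16 with RLE scaling, 63 and 16 with library totals, and 49 and 13 against Gbp4-zero cells matched on total UMIs. Without the low-count filter they were 80 and 31, with DESeq2 24 and 2, after thinning to 1000 UMIs 24 and 2, with at least 1 Gbp4 UMI 63 and 29, and without the condition on Car4, Gja5 and Vwf 120 and 108. Without the replicate block, which pairs both states of a library, they were 14 and 0 in edgeR, with 103 and 44 genes at an unadjusted p under 0.05. Leaving out 1 library gave 31 to 80 higher and 10 to 31 lower genes: 31 and 12 without early HER2-negative, 41 and 10 without early HER2-positive, 80 and 31 without late HER2-positive. The causes were not tested. An alternative chosen after seeing the data, without the cell holding most UMIs of each gene, gave 66 and 13.

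Iigp1, Igtp, Irgm2, Ifi47, Gm4951, Gbp2, Gbp5, Gbp7, Gbp8, Serpina3f, Tap1, Wars and Ciita stayed past the threshold in every alternative in which they were tested. Iigp1 was named as a marker of these cells and Gbp8 may share reads with Gbp4, so both are a description only. No named gene changed direction. Calls lost in at least 9 of 18 alternatives were Id1 and Igfbp7.

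The share of Gbp4-high cells in the late HER2-positive, early HER2-positive and early HER2-negative library was 30.5%, 37.6% and 33.6% at 1 or more Gbp4 UMIs. At 3 or more UMIs it was 9.81% and 7.98% in the early libraries. After thinning it was 4.69%, 4.57% and 4.28%. It was 17.4% in early HER2-negative cells of at least 2000 UMIs, and 17.6% in the late HER2-positive library without the condition on Car4, Gja5 and Vwf.

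Between libraries, genes at least 1.5-fold higher and lower numbered 1334 and 1288 of 6091 measured for late over early HER2-positive Gbp4-high cells. They numbered 392 and 446 of 2765 measured with at least 30 UMIs in the pair, and 694 and 490 of 2227 after thinning. For early HER2-positive over early HER2-negative they numbered 1362 and 1319 of 9374, and 631 and 765 of 6967 with at least 30 UMIs. Fewer genes were measured with at least 30 UMIs or after thinning, so the counts alone do not give the change in share. The late HER2-positive values rest on 13 Gbp4-high cells.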

Other observations

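Some genes outside the lists and the rule for named genes were singled out after their values were seen. Tnfsf10, which encodes the death ligand TRAIL, stood at 378, 604 and 732 CPM in Gbp4-high cells of the late HER2-positive, early HER2-positive and early HER2-negative library, against 348, 448 and 520 CPM in Gbp4-zero cells (log2 0.44 ± 0.07; edgeR adjusted p = 1.11e-05). Samhd1, a nucleotide hydrolase gene that restricts viruses, was higher by 0.67 ± 0.11. The surface protein genes Ly6a (0.33 ± 0.06) and Ly6c1 (0.26 ± 0.07) were higher in all 3 libraries. Ly6a stood at 3734, 3133 and 3216 CPM in Gbp4-high cells, against 2431, 2551 and 2597 CPM in Gbp4-zero cells. The cell cycle regulator gene Ccnd1 (0.33 ± 0.08) and the kinase gene Pim1 (0.69 ± 0.13) were higher as well. These differences are smaller than those of the IRG genes, and whether they differ from them was not tested.

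Other calls rested on few cells. For Myl4 and Cbr2, both called higher, 87.6% and 61.8% of the UMIs in Gbp4-high cells lay in 1 cell. For Tpm1 the share was 42.6%, and the gene was higher in only 1 of 3 libraries. The haemoglobin genes Hbb-bs and Hba-a1, both called lower, had 34.3% and 27.9% of their Gbp4-zero UMIs in 1 cell. Hbb-bs was higher in Gbp4-high cells of the early HER2-positive library (42 against 6 UMIs), and the late HER2-positive library had 1 against 0 UMIs.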
